A study of Homo sapiens with 28 samples.

Results

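Distal intergenic peaks were m6A peaks on chromosomes 1 to 22 and X whose summit lay more than 10000 bases from every annotated GENCODE gene on either strand. They numbered 15955 of 495694 peaks (3.22%) in 14 immunoprecipitated (IP) libraries, on 26.6% of the sequence (775 of 2911 Mb, hg38). The study profiled N6-methyladenosine (m6A) by MeRIP-seq, an antibody pull-down of methylated RNA fragments, in chromatin-associated RNA (caRNA) of 3 human cell lines. HepG2 (hepatocellular carcinoma) was measured as unmodified WT cells (n = 2). K562 (chronic myelogenous leukaemia) was measured as WT cells (n = 2), as cells with a non-targeting shRNA (Control, n = 2) and as cells with an shRNA against RBFOX2 (RBFOX2 KD, n = 2). NB4 (acute promyelocytic leukaemia) was measured as Control (n = 3) and RBFOX2 KD (n = 3). The shRNA lines were made by lentiviral transduction and puromycin selection, and the labels do not say whether replicates came from separate transductions, so the p values below measure the spread between these libraries only. Peak lists carry no transcript levels, so knockdown of RBFOX2 was not checked here.

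RNA that stays on chromatin includes nascent pre-mRNA, read-through transcripts beyond gene ends, enhancer and promoter RNAs, and RNA from repeats such as LINE-1. LINE-1 is a family of mobile elements with 2 open reading frames, of which the first encodes an RNA-binding protein and the second an endonuclease and reverse transcriptase. m6A is placed by the METTL3-METTL14 writer complex, mostly within the sequence DRACH (A, G or T; A or G; A; C; A, C or T), and RBFOX2 is an RNA-binding protein best known as a regulator of splicing.

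Peaks that overlapped on the same strand were merged over the 14 libraries into 4285 distal regions, against 81950 other regions. The windows below, centred on the summit and read 5′ to 3′ on the RNA strand (hg38), show the kinds of sequence that the distal regions held. Capitals mark matches to DRACH. The first 3 are from regions with a peak in all 14 libraries, and the next 4 are among the strongest regions listed in every library of 1 line and in no other line.
All libraries, upstream of LRGUK, chr7:134101138-134101288, plus strand: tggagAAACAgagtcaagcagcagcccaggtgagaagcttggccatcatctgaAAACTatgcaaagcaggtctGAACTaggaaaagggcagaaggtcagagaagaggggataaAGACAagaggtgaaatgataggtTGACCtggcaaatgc
All libraries, near HSP90AB2P, chr4:13322448-13322598, minus strand: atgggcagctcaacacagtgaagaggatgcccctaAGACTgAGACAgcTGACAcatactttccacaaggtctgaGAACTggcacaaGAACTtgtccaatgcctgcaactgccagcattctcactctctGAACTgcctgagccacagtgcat
All libraries, downstream of ZC3H15, chr2:186521375-186521525, plus strand: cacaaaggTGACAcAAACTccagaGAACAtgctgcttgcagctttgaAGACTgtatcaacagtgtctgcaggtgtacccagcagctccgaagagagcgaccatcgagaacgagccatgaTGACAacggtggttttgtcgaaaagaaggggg
HepG2, near LINC01348, chr1:235052274-235052424, minus strand: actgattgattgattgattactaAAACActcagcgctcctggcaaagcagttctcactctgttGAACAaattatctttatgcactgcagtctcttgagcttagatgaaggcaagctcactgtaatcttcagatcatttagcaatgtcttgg
K562, near ENSG00000287428, chr10:3318509-3318659, plus strand: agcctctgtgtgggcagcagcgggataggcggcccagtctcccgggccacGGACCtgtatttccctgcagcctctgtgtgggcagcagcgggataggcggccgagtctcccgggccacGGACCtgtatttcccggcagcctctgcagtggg
NB4, near TFRC, chr3:196123020-196123170, minus strand: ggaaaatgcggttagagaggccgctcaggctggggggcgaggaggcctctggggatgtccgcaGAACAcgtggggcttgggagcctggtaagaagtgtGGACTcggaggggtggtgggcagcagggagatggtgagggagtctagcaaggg
NB4, downstream of IRF4, chr6:424906-425056, plus strand: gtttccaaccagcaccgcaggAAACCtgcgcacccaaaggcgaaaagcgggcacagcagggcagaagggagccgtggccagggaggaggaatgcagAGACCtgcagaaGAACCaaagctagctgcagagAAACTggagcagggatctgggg

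The next windows show tandem repeats that recurred among the regions and were chosen after the values were seen. Each is from a strong region and is not a typical copy. In the GGAAT satellite, capitals mark the unit GGAAT instead. The last pair hold a unit that returned at the length of a monomer of the centromeric alpha satellite.
GGAAT satellite, NB4, chr10:41872486-41872636, plus strand: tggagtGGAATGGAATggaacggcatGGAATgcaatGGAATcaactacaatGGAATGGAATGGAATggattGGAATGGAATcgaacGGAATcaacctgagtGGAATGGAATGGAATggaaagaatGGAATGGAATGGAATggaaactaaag
Monomer-length unit, HepG2, chr2:94504308-94504478, plus strand: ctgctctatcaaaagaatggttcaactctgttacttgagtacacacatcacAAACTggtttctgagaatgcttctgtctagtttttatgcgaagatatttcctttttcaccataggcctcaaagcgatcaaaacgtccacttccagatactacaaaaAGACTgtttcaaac
Monomer-length unit, K562, chr21:7239769-7239939, plus strand: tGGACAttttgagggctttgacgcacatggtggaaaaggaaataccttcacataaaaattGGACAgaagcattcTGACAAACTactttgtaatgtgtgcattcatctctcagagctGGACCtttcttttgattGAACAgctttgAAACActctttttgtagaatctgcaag

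The libraries differed in depth. The number of reads that the peak values imply ran from 10.8 M in NB4 Control 1 to 30.6 M in HepG2 WT 2, and in NB4 the KD libraries (16.8 to 21.9 M) were deeper than the Control libraries (10.8 to 16.2 M). The lines carried peaks in the genes that mark them: 6 of 8 hepatocyte genes had a peak in HepG2, 7 of 8 erythroid genes in K562 and 7 of 8 myeloid genes in NB4, against 0 to 3 of 8 in each of the other lines.

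The peaks thinned out with distance from genes, and the 10000-base limit cut through a smooth slope. Peaks per Mb and library numbered 18.3 within genes, 3.004 between 5 and 10 kb, 2.11 between 10 and 20 kb, 1.11 between 50 and 100 kb and 1.44 between 200 and 500 kb. Beyond 500 kb the density was 0.163. At the limit, 970 peaks lay 9000 to 10000 bases from a gene, with a median fold enrichment of 6.06, and 744 lay 10000 to 11000 bases away, with a median of 6.11. Over the 4285 regions the median distance was 30906 bases, 10% lay within 12625 bases and 10% beyond 141695 bases. The farthest was 2799 kb from a gene, and 734 regions (17.1%) were over 100000 bases away.

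**Figure D1:**
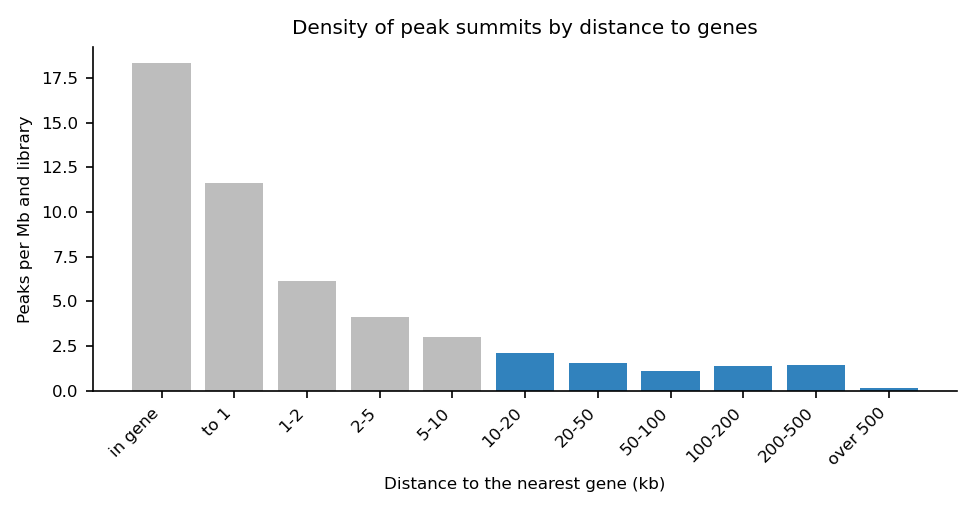
Density of peak summits (peaks per Mb of sequence and library, over 14 libraries) in bins of distance to the nearest gene, with grey bars up to 10 kb and blue bars for distal bins. The density falls from 18.3 within genes to 1.11 between 50 and 100 kb, is higher again up to 500 kb and is 0.163 beyond.

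The nearest gene was a lncRNA for 38.3% of the regions, protein-coding for 22.2% and a processed pseudogene for 21.0%. A region lay downstream of its nearest gene on the same strand, where read-through transcripts would lie, in 1261 cases (29.4%), against 25.9%, 22.6% and 22.03% in the other 3 arrangements. Among regions with no LINE-1 match this share was 36.8% of the 589 regions between 10000 and 15000 bases and 23.1% of the 477 beyond 100000 bases. Distal sequence itself is not even in this respect: 52.3% of points on a regular grid lay downstream of their nearest gene, against 55.3% of the regions, on either strand. Per Mb of distal sequence the regions were densest on chromosome 22 (13.3), chromosome 21 (8.59) and chromosome 15 (8.27). Of the 104 regions on chromosome 22, 82 had a peak in K562, 28 in NB4 and 6 in HepG2. Of the 104 on chromosome 21, these numbers were 94, 10 and 2.

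Distal peaks were weaker, narrower and poorer in GC than the other peaks of the same library. All differences were tested over the 14 libraries by an exact two-sided sign-flip permutation test, adjusted over 7 measures by the Benjamini-Hochberg method. Libraries of 1 line share regions and are not independent in that sense. The median percentile of the peaks' −log10 q within their library was 36.3 to 42.4 for distal peaks and 50.2 to 50.6 for the others, a mean difference of -10.2 points (14 of 14 libraries, adjusted exact p = 0.000142). The GC content of the summit window was 41.9% against 50.4% on average (14 of 14 libraries, adjusted exact p = 0.000142), and the peaks were narrower by 0.23 on the log2 scale in 14 of 14 libraries. Fold enrichment at the summit differed less, by -0.08 on the log2 scale, in 12 of 14 libraries (adjusted exact p = 0.0022), with means of -0.16 in K562 and -0.01 in NB4.

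The consensus of m6A was close to saturation in windows of this length and told the peaks apart only weakly. DRACH occurred in 95.6% of the distal summit windows (75 bases on either side) and in 94.1% of the flanking windows, an excess of 1.503 points against 4.31 in the other peaks (lower in 14 of 14 libraries, adjusted exact p = 0.000142). In a grid of distal sequence 93.2% of such windows held it. The favoured form GGACT was in 24.7% of distal summit windows and 11.3% of their flanks, and summits exceeded flanks in 14 of 14 libraries. In the other peaks the shares were 25.0% and 12.2%.

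LINE-1 was the commonest of the repeats searched for among the distal regions. A window of 150 bases on either side of the summit matched the sense strand of a LINE-1 element (at least 80% identity over 150 bases) in 1428 regions (33.3%), against 2.995% of grid windows of distal sequence and 8.44% of the other regions. Only 3 regions matched the antisense strand. Within libraries the LINE-1 share of distal peaks exceeded that of the other peaks by 21.6 points on average, in 14 of 14 libraries, a measure that was added after the data were seen (exact sign-flip p = 0.000122, the smallest that 14 libraries allow, unadjusted). Among peaks whose central 31 bases are unique in the genome this difference was 8.81 points. The median identity was 95.7%. The central 31 bases of the summit occurred more than once in the genome in 1203 of the 1428 regions (84.2%), with a median of 175 copies and a maximum of 17009, so the copy that gave the reads cannot be told from most of these peaks. Of 151 reference elements with both reading frames open, 37 were distal and 12 of these held a distal summit.

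The summits gathered at a few places of the element. Counted from the start codon of the first reading frame, 1280 of 1428 (89.6%) lay in the second reading frame and 87 (6.09%) in the first. Windows were matched only to 151 reference elements with both frames open, plus 900 bases before the first frame and 200 after the second. The second frame was the larger part of that span (median of 1275 codons, against 338 in the first). Copies unlike these elements, or parts outside the span, could not match, so regions with no LINE-1 match may still hold LINE-1. The bin with most regions, positions 4000 to 4099, held 243, of which 222 had a peak in K562, 25 in HepG2 and 20 in NB4, and 79.8% of them held GGACT. Positions 4800 to 4899 held 186 regions, of which 159 had a peak in K562, 15 in HepG2 and 29 in NB4, and GGACT was in 3.23% of them. Positions 4600 to 4699 held 164 regions, with 159 in K562, 8 in HepG2 and none in NB4 by the summit of the merged region (NB4 Control 1 listed 1 peak there), and GGACT in 68.3%. This last bin also varied within K562, with 133 peaks in Control 1, 35 in Control 2, 44 and 33 in the WT libraries and 129 and 124 in the KD libraries.

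**Figure D2:**
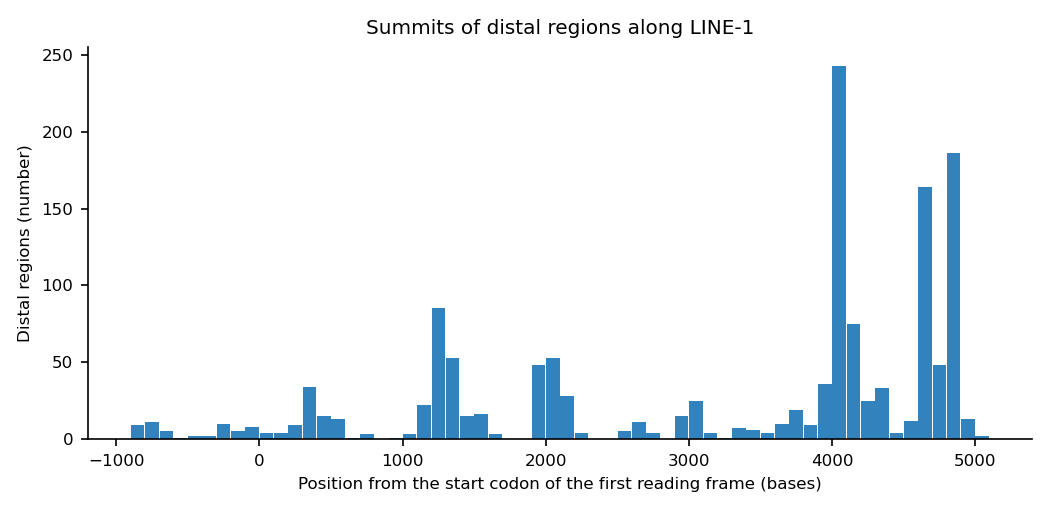
Number of distal regions (y axis) by the position of their summit along LINE-1 (x axis, bases from the start codon of the first reading frame, bins of 100). The highest bars are at 4000 to 4099 (243 regions), 4800 to 4899 (186) and 4600 to 4699 (164).

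Tandem satellites made up a smaller and line-specific part. At least 150 bases of the same window were turns of GGAAT, the unit of pericentromeric human satellites, in 96 regions (2.24%, against 0.175% of grid windows and 0.0549% of other regions). NB4 had a peak in 92 of them, K562 in 4 and HepG2 in none. The unit was read as GGAAT on the RNA strand in 95 of the 96, and 56 lay on the plus strand of chromosome 10. In the NB4 libraries 15, 51 and 80 such peaks were listed in Control 1, 2 and 3, and 60, 74 and 38 in KD 1, 2 and 3, so the groups overlapped. A unit of alpha satellite monomer length (at least 60% of bases equal to the base 1 monomer further on) was found in 48 regions (1.12%, against 1.54% of grid positions): 30 on chromosome 2, all in HepG2, and 18 on chromosomes 21 and 22, all in K562. A looser definition, which was also tried after the data were seen (55%, at any length within 3 bases of the monomer), found 68 regions, 37 in HepG2, 29 in K562 and 3 in NB4, against 3.31% of the grid. It also took in shorter repeats, and the stricter definition was kept. Neither definition was chosen without sight of the values. The central 31 bases of the summit occurred more than once in the genome in 62 of the 96 GGAAT regions (64.6%). The same held for 35 of the 48 regions of the stricter monomer-length definition (72.9%). For most satellite regions the copy that gave the reads therefore cannot be told.

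**Figure D3:**
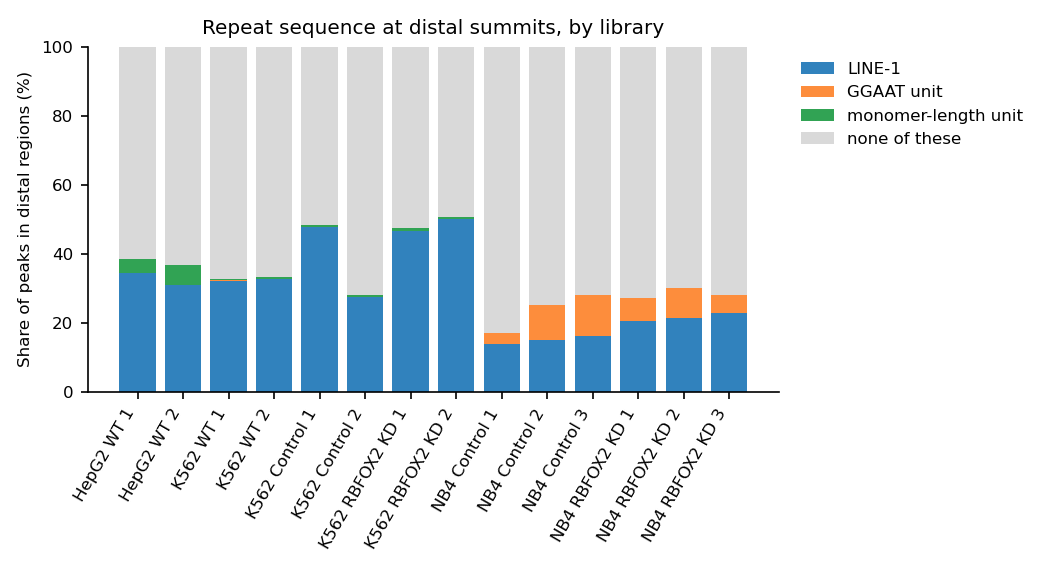
Share of the peaks in distal regions (y axis, %) whose summit held LINE-1, the GGAAT unit, the monomer-length unit or none of these, one bar for each library. LINE-1 takes the largest share of the 3 repeats in every library, the GGAAT unit is seen mainly in NB4, and the monomer-length unit is largest in HepG2 (4.23% and 5.61%).

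Most distal regions had neighbours. With regions of 1 strand chained at 10000 bases or less, 1347 (31.4%) stood alone and 2938 (68.6%) formed 823 clusters, of which 176 had 5 or more regions and 26 had 10 or more. Each of the 5 largest clusters was listed in 1 line only. The largest, chr10:41857200-41914924 on the plus strand, held 55 regions in NB4, all of the GGAAT unit, with 7, 31 and 48 of them listed in the Control libraries and 41, 46 and 27 in the KD libraries. It lay 234700 bases from KSR1P1. The second, chr2:94496037-94532890, held 27 regions in HepG2 (16 and 23 in the 2 libraries), 19 of them with the monomer-length unit. The third, chr21:7227275-7286200, held 21 regions in K562, with 7 to 16 in each library. In these clusters 35 of the 55, 17 of the 27 and 18 of the 21 summits occurred more than once in the genome. The place of their reads is uncertain.

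The remaining 2 of the 5 largest clusters held little or no repeated sequence. At chr6:169958240-169989946 on the plus strand, 98184 bases from ENSG00000287823 and 208238 bases downstream of ERMARD, 19 regions had a peak in NB4 and in no other line. All 19 summits were unique in the genome, and the 6 libraries listed 13 to 16 of them each, with no gap between Control (14, 15 and 13) and KD (16, 14 and 16). At chr10:3567412-3621507, 17 regions had a peak in K562: 13 and 16 in WT, 6 and 8 in Control and 7 and 7 in KD. The nearest gene was the lncRNA ENSG00000236892 (11235 bases), and the nearest coding gene was KLF6, a zinc finger transcription factor (208447 bases). Of the clusters with unique sequence throughout, 3 more are named because of their neighbours, after the values were seen. One of 12 regions lay 11915 bases downstream of MCM5, a subunit of the replicative helicase, and was listed in all 3 lines (1 region in HepG2, 7 in K562 and 11 in NB4). One of 11 regions lay 12487 bases downstream of IRF4, a transcription factor of blood cells, on the same strand. Only NB4 listed it, with 6, 6 and 6 regions in Control and 10, 7 and 9 in KD. The NB4 KD libraries were deeper and listed more distal peaks in all (736 to 902, against 458 to 680 in Control). The difference at this cluster was not tested. One of 9 regions, 102804 bases from ENSG00000280144 and 168744 bases upstream of CNTNAP2, was listed in K562 alone, with 5 to 9 regions a library.

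Over larger spans some windows of 1 Mb held many regions of 1 line, and those described were also picked after the values were seen. The 10 fullest windows held 39.3% of the 506 HepG2 regions, 26.1% of the 1218 NB4 regions and 10.1% of the 2963 K562 regions. In HepG2 the fullest held 37 regions on the plus strand of chromosome 6, at least 641865 bases from TBC1D32, and none on the other strand. The next held 35 on the plus strand of chromosome 2, with 11 on the other strand. In K562 the fullest held 49 on the plus strand of the X chromosome, 26 of them in all 6 libraries, at least 297543 bases from GLUD2, with 1 on the other strand. In NB4, after the window of the chromosome 10 satellite, 50 regions lay on the minus strand of chromosome 5, of which 32 matched LINE-1. The nearest of them to a coding gene was 10757 bases upstream of EMB, which is on the same strand. A further 44 lay on the minus strand of chromosome 15, at least 59520 bases from TLE3, a transcriptional co-repressor.

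Pairs of plus and minus strand peaks were rare. A summit on the other strand lay within 1000 bases of 0.928% of distal peaks, against 7.54% of other peaks (lower in 14 of 14 libraries, adjusted exact p = 0.000142). The shares of peaks in strand pairs given below count peaks in this way. The pairs themselves were defined more strictly, as mutual nearest summits within 1000 bases. The libraries listed 71 distal pairs, of which 47 (66.2%) were divergent, with the minus summit at the lower coordinate, against 66.5% of 15588 other pairs. The lines were unlike in this: 43 of 57 pairs (75.4%) were divergent in K562, against 69.6% of its other pairs, 3 of 13 (23.1%) in NB4, against 62.4%, and the single pair in HepG2. Pairs recur between libraries, and the difference was not tested. In NB4 a pair in the chromosome 6 cluster near ENSG00000287823 was not divergent and was listed in 4 libraries. Further pairs of that cluster were not divergent either, so the NB4 share rests largely on that cluster. The 71 listed pairs made 33 distinct pairs, 19 of them divergent and 19 seen in 1 library only. The pair seen most often, near LINC00910 on chromosome 17, was listed in all 6 K562 libraries and in NB4 Control 3 and KD 3, with a median gap of 47 bases. Its summits changed order between libraries, from -325 to 96 bases. A pair 20101 bases from SOX5, a transcription factor gene, was listed in all 6 K562 libraries with a median gap of 45.5 bases and a median fold enrichment of 8.06 on the plus strand and 28.3 on the minus strand.

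The remaining named pairs were seen in K562 only. Near FRG1DP on chromosome 20 the gap was 607 bases in 5 libraries, with median folds of 11.9 and 8.46. The pair near ENSG00000287428 on chromosome 10 had the strongest plus-strand peak of the K562-only regions, with a median fold of 59.9 on the plus strand against 4.07 on the minus strand in 5 libraries. On chromosome 4, 89130 bases from ENSG00000289869, a pair was listed in both Control and both KD libraries with a gap of 199 bases and was not listed in the WT libraries.

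Distal regions were far less often shared between lines than other regions. Of the 4285, 2646 (61.8%) had a peak in K562 only, 976 (22.8%) in NB4 only, 330 (7.70%) in HepG2 only and 69 (1.61%) in all 3 lines, against 14372 of 81950 other regions (17.5%) in all 3. Per library 21.8% of distal peaks and 70.5% of other peaks overlapped a peak of another line, a difference of -48.7 points (14 of 14 libraries, adjusted exact p = 0.000142). The lines have 2, 6 and 6 libraries, and with 2 libraries taken from each the shares in all 3 lines were 1.49% and 19.1%. The 69 shared regions lay nearer to genes (median 17922 against 31451 bases) and had a higher median percentile (53.1 against 29.01), while LINE-1 took a like share of both (34.8% and 33.3%). In every library of their line were 344 of 506 HepG2 regions (68.0%), 795 of 2963 K562 regions (26.8%) and 222 of 1218 NB4 regions (18.2%), against 71.5%, 38.3% and 35.8% of other regions.

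A peak in all 14 libraries was found in 23 regions (0.537%, against 9.36% of other regions), and the 8 strongest are named. A LINE-1 copy at chr2:31834527-31835203, 10840 bases from the pseudogene AK2P2, had folds of 6.03 and 8.94 in HepG2, 9.21 to 22.7 in K562 and 9.12 to 14.8 in NB4. A further 3 matched LINE-1: chrX:57087615-57089252 near SPIN2P1, chr3:187834715-187835730, and one 24022 bases downstream of NUDCD1 on chromosome 8. The other 4 matched no repeat searched for here. They lay 26086 bases upstream of LRGUK, 10891 bases from the pseudogene HSP90AB2P, 23259 bases downstream of RCOR1, a subunit of the CoREST co-repressor, and 12089 bases downstream of ZC3H15. The lncRNA ENSG00000259508 lay nearer than RCOR1 to its region (16220 bases). The region near ZC3H15 had folds of 4.42 and 10.6 in HepG2, 11.2 to 27.95 in K562 and 5.61 to 10.1 in NB4, so every K562 library stood above every NB4 library.

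Regions in every library of 1 line and in no other numbered 662 in K562, 201 in HepG2 and 153 in NB4. The strongest in K562, chr10:3317905-3319562 near ENSG00000287428, had folds of 33.1 and 37.9 in WT, 63.0 and 46.5 in Control and 59.9 and 65.1 in KD. Next were 2 LINE-1 copies, one 25473 bases from RPL6P21 with folds of 22.9 to 53.0, and one on chromosome 2 with 18.7 to 33.8. In NB4 the strongest lay 40942 bases upstream of TFRC, the transferrin receptor gene, with folds of 36.6, 18.3 and 18.2 in Control and 21.0, 25.9 and 21.3 in KD. Its nearest gene was the lncRNA ENSG00000289219, and it lay 19133 bases downstream of that gene on the same strand. A region near NDUFS5P5 had folds of 5.44 to 13.4, and one 13538 bases downstream of IRF4 had folds of 10.8, 14.1 and 7.18 in Control and 13.3, 13.98 and 16.7 in KD. In HepG2 the strongest lay 12578 bases downstream of LINC01348 (folds of 10.8 and 13.0), followed by one in the chromosome 2 cluster above (9.34 and 11.9) and a tandem repeat on chromosome 4, 28523 bases from ENSG00000251310 (7.25 and 9.86).

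Genes known for each lineage were checked for distal regions as neighbours. Within 200000 bases and with the gene as the nearest coding one, 1 of 20 erythroid genes had any (TFRC, 3 regions, of which 1 had a peak in K562 and 2 in NB4), none of 20 myeloid genes had one, and 2 of 20 hepatocyte genes had 1 each, both in HepG2: APOB, of apolipoprotein B, and ASGR1, of the asialoglycoprotein receptor. Of all 19962 coding genes 4.66% had at least 1 such region, so the shares of 5% and 10% rest on 1 and 2 genes and say nothing particular about the lists.

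K562 had more distal peaks than NB4, farther from genes. K562 libraries listed 1440 to 1993 distal peaks, NB4 libraries 458 to 902 and HepG2 libraries 434 and 487, so K562 and NB4 did not overlap. As a share of all peaks these were 4.61% ± 0.502 (SD, n = 6) in K562 and 1.962% ± 0.318 (n = 6) in NB4, a difference of 2.64 points (exact permutation test over 924 arrangements, adjusted over 5 measures, p = 0.0036). HepG2 averaged 1.85%. The number differed by 1.42 and the median distance by 0.38 on the log2 scale, at the same adjusted exact p and again with no overlap. The median distance was 30453 to 33516 bases in K562 and 23185 to 26590.5 bases in NB4. The share of peaks in clusters (difference -5.25 points, adjusted exact p = 0.13) and in strand pairs (0.268 points, adjusted exact p = 0.297) did not pass the threshold. LINE-1 took 39.4% ± 9.75 of distal peaks in K562 (n = 6) and 18.9% ± 3.84 in NB4 (n = 6), with no overlap (exact p = 0.00216, unadjusted). The LINE-1 share of other peaks was 7.46% to 14.3% in K562 and 3.31% to 6.52% in NB4, also with no overlap. The difference was 20.5 points over all distal peaks and 5.39 points over those with a unique summit (exact p = 0.00433). Without LINE-1 peaks the lines differed by 1.47 points in distal share and by 0.18 in log2 distance, and with unique summits by 1.51 points in share. Within a line genotypes were pooled.

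**Figure D4:**
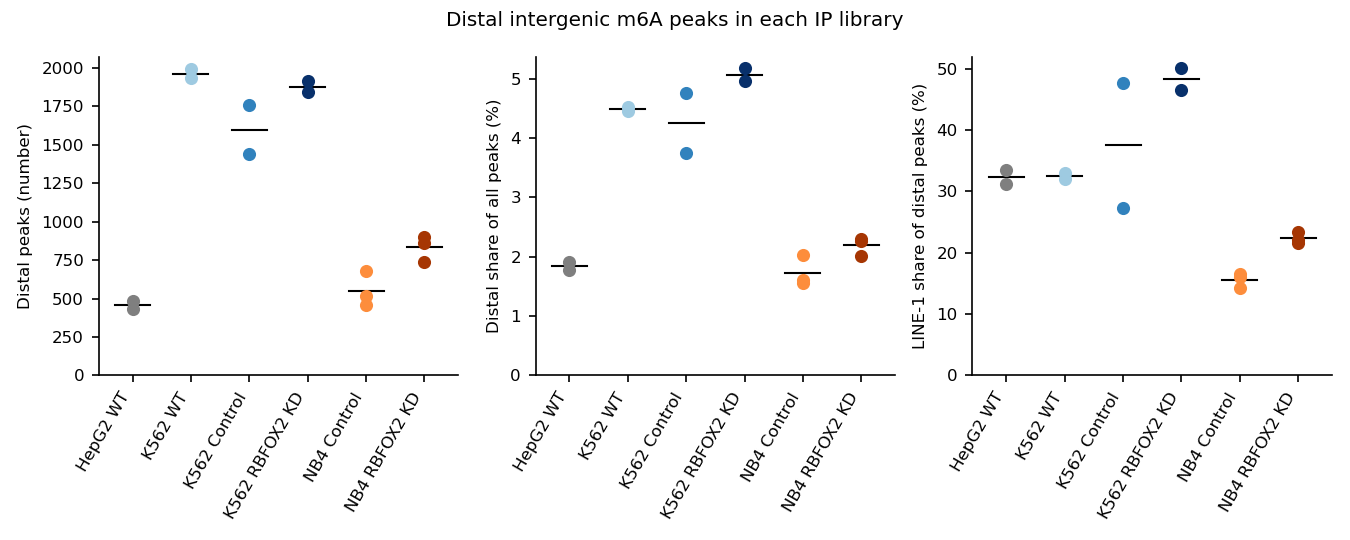
Number of distal peaks, their share of all peaks (%) and the share of distal peaks matching LINE-1 (%), with 1 point per library and a line at each group's mean. K562 libraries (1440 to 1993 distal peaks) stand above all NB4 libraries (458 to 902), and K562 Control 2 has the lowest LINE-1 share of the K562 libraries (27.3%).

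After RBFOX2 knockdown distal peaks were somewhat more numerous, at a size that did not pass the adjusted threshold. In K562, Control 1 and 2 had 1757 and 1440 distal peaks and KD 1 and 2 had 1913 and 1845. In NB4, Control 1 to 3 had 458, 514 and 680, and KD 1 to 3 had 902, 864 and 736. All KD libraries stood above all Control libraries of their line. Peaks of all kinds numbered 29511, 31899 and 33400 in NB4 Control and 39707, 37622 and 36697 in KD, also with no overlap. In K562 they numbered 36844 and 38468 in Control and 38576 and 35577 in KD, which overlapped. The number of distal peaks differed on average over the lines by 0.43 on the log2 scale (0.24 in K562 and 0.61 in NB4). The exact permutation p was 0.0167 within lines, the smallest that the 120 arrangements allow, and 0.0833 after adjustment over 5 measures. In K562 the difference in number was -0.02 without LINE-1 peaks and 0.04 with unique summits, and in NB4 it was 0.49 and 0.60. The mean over the lines without LINE-1 peaks was 0.24 in number and 0.219 points in distal share. The distal share was 4.77% and 3.74% in K562 Control and 4.96% and 5.19% in KD, and 1.55%, 1.61% and 2.04% in NB4 Control and 2.27%, 2.30% and 2.01% in KD. The mean difference was 0.637 points (adjusted exact p = 0.0833), and the NB4 groups overlapped. Within K562 alone 2 against 2 libraries cannot go below an exact p of 0.333, nor 3 against 3 in NB4 below 0.1. In NB4 the KD libraries were also the deeper ones. With summit values rescaled to equal depth and held to −log10 p of at least 12, the NB4 difference in number was 0.34 on the log2 scale. At −log10 p of at least 30 it was 0.13 (exact permutation p = 0.6) and the NB4 share differed by 0.204 points, while the mean over the lines was 0.26 in number (adjusted exact p = 0.306).

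Distance, clustering and pairing did not pass the threshold either. The median distance differed by -0.02 on the log2 scale (adjusted exact p = 0.6), the clustered share by 3.23 points (-2.02 in K562 and 8.47 in NB4, adjusted exact p = 0.333) and the share in strand pairs by -0.459 points (adjusted exact p = 0.111). The LINE-1 share of distal peaks, added after the data were seen, was 47.6% and 27.3% in K562 Control and 46.5% and 50.1% in KD, so Control 1 lay within the KD range. In NB4 it was 14.2%, 15.95% and 16.5% in Control and 21.6%, 21.99% and 23.4% in KD, with no overlap. The rise was not particular to distal peaks. Among other peaks the LINE-1 share was 3.31%, 3.86% and 5.20% in NB4 Control and 6.02%, 6.32% and 6.52% in KD, also with no overlap. In K562 the share among other peaks was 13.2% and 7.46% in Control and 12.7% and 14.3% in KD. For distal peaks the mean difference was 8.81 points (exact permutation p = 0.0333, unadjusted), and 3.73 points (p = 0.05) without K562 Control 2. In K562 the 3 libraries of highest LINE-1 share were also the shallowest (12.6 to 16.4 M reads implied), while in NB4 the KD libraries were the deeper ones. With summit values rescaled to equal depth the difference was 8.89 points (exact permutation p = 0.0333), 8.74 points at −log10 p of at least 12 (the same p) and 8.33 points at 30 or more (p = 0.0833).

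Single regions that changed in all libraries of a line were counted without a test. A region was lost when every Control library and no KD library of the line listed a peak, and gained in the reverse case. In K562, 32 of 2381 distal regions (1.34%) were lost, against 1.74% of all regions, and 95 (3.99%) were gained, against 1.76%. In NB4, 9 of 1248 (0.721%) were lost, against 0.61%, and 100 (8.01%) were gained, against 3.68%. The lost shares lay near the background and the gained shares above it in both lines. Among the gained, LINE-1 regions stood out: 74 of 1114 (6.64%) in K562 and 37 of 267 (13.9%) in NB4, against 21 of 1267 (1.66%) and 63 of 981 (6.42%) of distal regions with no LINE-1 match. Here a region counted as LINE-1 when any of its peaks in the Control and KD libraries of the line matched. By the summit of the region merged over all libraries, 73 of the 95 gained in K562 and 33 of the 100 in NB4 matched. Leaving out a library loosens the rule for lost and gained regions, and the counts moved with it. In K562 the gained count was 444 without Control 1 (19.3% of distal regions, against 7.30% of all regions), 151 without Control 2 (6.64% against 4.64%), 263 without KD 1 (11.8% against 5.22%) and 266 without KD 2 (11.9% against 6.38%). The lost count was 186 (8.07% against 14.03%), 123 (5.41% against 5.83%), 96 (4.30% against 6.20%) and 55 (2.47% against 2.78%) in the same order. In NB4 the gained count was 181 without Control 3 (15.1% against 7.19%) and 159 without KD 3 (13.3% against 7.02%), and the lost count was 14 without Control 1 (1.17% against 1.42%) and 15 without Control 3 (1.25% against 1.33%). Gained distal shares stood above those of all regions whichever library was left out. Lost shares stood below, except without NB4 KD 2 (0.917% against 0.874%). With all NB4 libraries the lost share was also above (0.721% against 0.61%). With summit values rescaled to equal depth and held to −log10 p of at least 30, 10 of 374 distal regions (2.67%) were gained in NB4, against 1.66% of all regions, and 51 of 1161 (4.39%) in K562, against 2.31%. At that setting 6 of the 374 (1.60%) were lost in NB4, against 2.33% of all regions. Of all NB4 regions 507 were then lost and 360 gained, whereas without rescaling 321 were lost and 1936 gained.

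**Figure D5:**
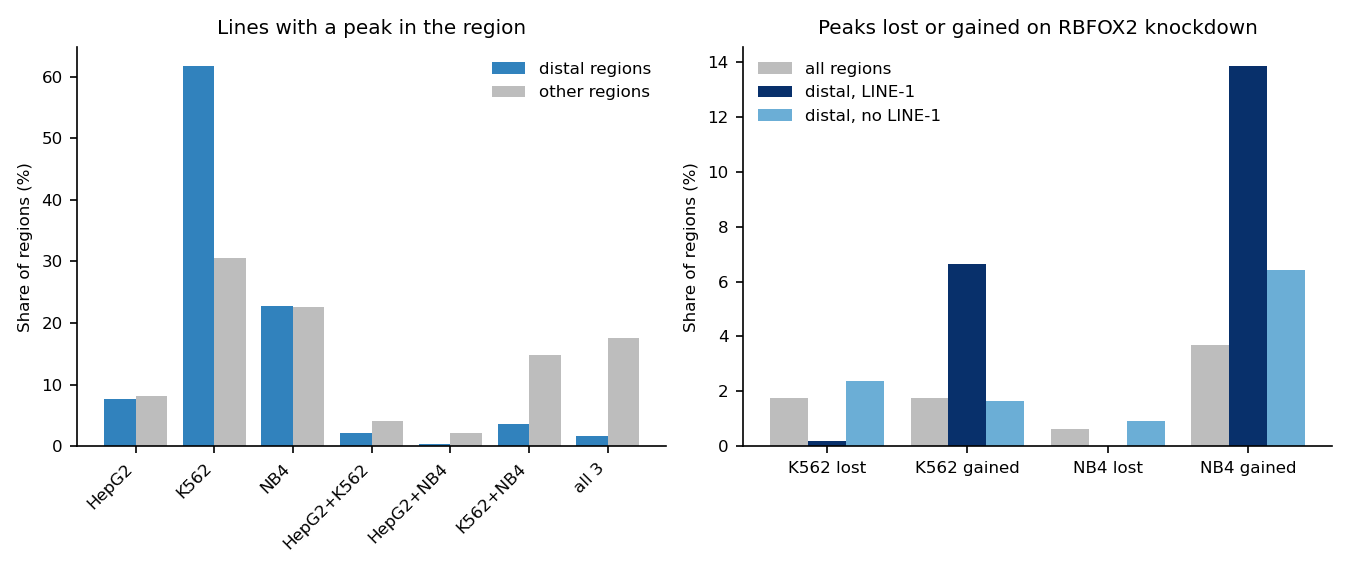
Left, share of distal (blue) and other (grey) regions (y axis, %) by the lines that listed a peak there. Right, share of regions lost or gained on RBFOX2 knockdown in K562 and NB4 among all regions, distal LINE-1 regions and other distal regions. Distal regions in all 3 lines are 1.61% against 17.5% of other regions, and the highest bar on the right is the gained LINE-1 regions of NB4 (13.9%).

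The strongest lost and gained regions had modest folds. In K562 the strongest lost region lay on chromosome 16, 29994 bases from ENSG00000279729 (folds of 7.60 and 3.78 in Control). The next lay 11906 bases downstream of NDUFS6, a subunit of respiratory complex I, with folds of 6.56 and 4.73 in K562 Control, and NB4 listed it in all 6 libraries (folds of 5.89 to 11.1). The remaining one lay near CYCSP6. The 3 strongest gained in K562 all matched LINE-1, at positions 4045, 4667 and 4077, with folds from 6.51 upwards in both KD libraries. In NB4 the strongest lost region lay on chromosome 10, 583578 bases from KSR1P1 (7.33, 5.99 and 6.17 in Control), and its summit had 32 copies in the genome. Another lay 14055 bases from the lncRNA ENSG00000256982 and 54910 bases from CBFA2T3, a co-repressor gene. The last lay 17973 bases from FKBP6. The gained ones were a LINE-1 match near LINC03022 that K562 and HepG2 also listed, one 11535 bases from PATE4, and one in the IRF4 cluster (3.33, 8.69 and 8.91 in KD). The region near PATE4 had no LINE-1 match, but its summit had 125 copies in the genome.

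In both lines 2 distal regions were gained, a LINE-1 copy near HSP90AB2P with folds of 4.59 and 6.31 in K562 KD and 3.52 to 6.57 in NB4 KD, and a LINE-1 copy 11005 bases downstream of LINC00997, with 3.93 and 4.49 in K562 KD and 3.603 to 4.13 in NB4 KD. The copy near LINC00997 was weak, at percentiles of 7.15 to 14.1 in the KD libraries, and K562 WT 1 also listed it (fold of 3.43). The summits had 11 and 94 copies in the genome. A further 2, near RCL1 and MIR1299, were lost in K562 and gained in NB4.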

How the data were processed

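Peaks were analysed from 14 IP libraries; the 14 input libraries were not analysed here. The authors trimmed reads with Trimmomatic 0.39, aligned them to hg38 with HISAT2 2.1.0, split them by strand with SAMtools 1.9 and called peaks per library and strand with MACS2 (extension 150, up to 5 duplicates, q under 0.01). Whether the input served as the control, and how reads with many matches were placed, are not given in the sources used here. The deposited lists give the fold enrichment (a ratio to the local mean) and −log10 p and −log10 q at each summit, per library. Replicates were not pooled by the authors in these files.

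Distances were measured to 62062 genes of GENCODE release 44 (the authors used an earlier release). Peaks were merged by strand; 28 regions with both distal and other summits were left out of both sets. Effective reads were recovered from fold and p; pileups came out whole in all but HepG2 WT 1 and 2 and NB4 Control 3, so depths there are approximate. LINE-1 was matched with blastn 2.17.0. No repeat annotation was used here, and windows of LINE-1 copies are not reported here. Tests were exact permutation tests over libraries (Python 3.11.15), checked on simulated data. Members, gene lists, repeat definitions and example windows were chosen with earlier results of these data known. Named regions were the 8 strongest by mean percentile of −log10 q in all libraries, the 3 strongest particular to each line, the 5 largest clusters and the 3 largest listed in 1 line only, the 5 most often seen divergent pairs, the 3 strongest lost and gained in each line, and those changed in both lines; others are said to have been chosen after their values were seen. Alternatives were distance limits of 5000 and 20000 bases, coding and lncRNA genes only, −log10 q of at least 5, unique 31-base summits, matched depth, 50% overlap, 2 libraries a line, each replicate left out, and a replicate block.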

Additional observations from a re-analysis of the deposited data

Results flagged for a closer look

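In the settings of the report, though not in all others, the change on knockdown went opposite ways in the 2 lines for both of the following measures. The median distance to genes differed between KD and Control by 0.05 in K562 and -0.09 in NB4 on the log2 scale, a difference of 0.14 between the lines, and each KD library lay on its line's side of the Control mean. A permutation test of the difference itself, with labels permuted within lines, gave an exact p = 0.0667 (0.2 adjusted). The clustered share of distal peaks differed by -2.02 points in K562 and 8.47 points in NB4, a difference of -10.49 points (exact permutation p = 0.0667, 0.2 adjusted). The clustered share was higher in KD in both lines with unique summits (2.24 points in K562 and 8.93 in NB4), without LINE-1 peaks (1.95 and 8.53), at matched depth with −log10 p of at least 30 (0.753 and 4.01) and without K562 Control 2 (1.38 and 8.47). The distance differed the same way in both with a limit of 5000 bases (0.06 in K562 and 0.05 in NB4) and without LINE-1 peaks (-0.01 and -0.09).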

How the results depend on the processing

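The K562 against NB4 differences in share, number and distance, and all differences between distal and other peaks, kept their direction and their side of the threshold under every alternative run, though the sizes of some, given beside them in the report, were over 1.5 times smaller with unique summits or without LINE-1 peaks. Those of RBFOX2 knockdown did not all do so. The cause was not tested in any of the following cases. The knockdown difference in median distance, near 0 throughout, changed sign with a limit of 5000 bases (0.0524 on the log2 scale), with coding and lncRNA genes only (0.00997) and at matched depth with −log10 p of at least 30 (0.0083), and ran from -0.0439 to 0.00063 when single replicates were left out. At that depth setting the strand-paired share on knockdown was 0.0514 points and K562 minus NB4 was 2.67 points in clustered share and 0.58 points in paired share, the last past the threshold. The K562 minus NB4 paired share was -0.0609 points with a limit of 20000 bases, 1.41 with coding and lncRNA genes only and 0.753 with no LINE-1 peaks, and the clustered share was -9.73 points with the 20000-base limit; the latter 3 passed the threshold. With unique 31-base summits the knockdown differences in distal share (0.298 points) and clustered share (5.58 points) passed it, at an adjusted exact p of 0.0417. Without NB4 Control 3 the share (0.713 points) and the number (0.51) passed it too, at the same adjusted exact p. Over all single replicates left out the share ran from 0.381 to 0.894 points and the number from 0.36 to 0.51. The LINE-1 difference on knockdown no longer passed an unadjusted exact p of 0.05 with unique summits (3.10 points), at the depth setting above (8.33 points), with the replicate block (8.81 points, exact p = 0.125), or without K562 Control 2, KD 1 or KD 2 (3.73 to 13.9 points over all replicates).

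With the 20000-base limit 17 distal regions were lost in K562 (1.012%, against 1.74% of all regions), and 5 were lost (0.671% against 0.61%) and 55 gained (7.38% against 3.68%) in NB4. At matched depth, 41 were gained in NB4 at −log10 p of at least 12 (4.29% against 2.29%) and 10 at 30 (2.67% against 1.66%), where K562 lost 7 (0.603% against 0.924%) and gained 51 (4.39% against 2.31%). NB4 lost 12 distal regions at the setting of 12 (1.26% against 1.22%) and 6 at 30 (1.60% against 2.33%). With single replicates left out K562 lost 55 to 186 and gained 151 to 444, and NB4 lost 10 to 15 and gained 110 to 181. The share of regions in all 3 lines was 2.42% and 0.927% with limits of 5000 and 20000 bases and 0.7001% when 50% overlap was asked for. Matching depth rescaled summit values only and could not add peaks that a deeper library would have given. The settings at −log10 p of 12 and 30 and those without LINE-1 were chosen after seeing the data.

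Replicate numbers are shared between groups, but same-numbered libraries did not deviate together (correlations of -0.67 in K562 and -0.71, -0.32 and -0.98 in NB4). With the replicate block the differences were as reported, 0.637 points in share and 0.43 in number, each at an adjusted exact p of 0.312. The 5 pairs cannot give an exact two-sided p below 0.0625, so no measure could pass 0.05 with the block.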
